A study of Mus musculus with 20 samples.

Results

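DPP4+ and DPP4- cells from the inguinal fat of mice housed at 22 °C were compared by RNA-seq. The cells were adipose progenitors, called APCs in the labels, of male C57BL/6 mice, whose inguinal depot is the subcutaneous white fat of the groin. The ages of the mice and further surface markers of the sort are not given in the sources used here. Flow cytometry had selected cells with the surface receptor PDGFRb, and the cell surface peptidase DPP4 then told the 2 populations apart. The comparison used 5 DPP4+ and 5 DPP4- libraries, 10 of the 20 libraries of the series. The other libraries, 5 of DPP4+ and 5 of DPP4- cells from mice held at 6 °C for 24 h, did not enter the main comparison. They entered a test of whether the differences changed in the cold, and an alternative fit of the comparison at 22 °C. Of 27179 genes in the table, the 13043 that averaged 10 or more normalized reads across the 10 libraries at 22 °C were tested. A normalized read is a read count divided by a single factor per library, as the authors deposited it. Near that minimum, L1cam (9.98), F13a1 (9.98) and Rslcan18 (9.99) fell just outside and Brd3os (10.01), Tmem88b (10.02) and Angptl7 (10.03) just inside. The labels do not say whether the libraries of a group came from separate or pooled animals, so that p-values measure the spread between these libraries only.

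White fat holds several kinds of stromal progenitor that can form adipocytes. In mice, progenitors with DPP4 and the secreted peptidase inhibitor Pi16 lie in the fibrous interstitium around the lobules and are regarded as an early, less committed pool. Cells without DPP4 that make the matrix protein Sparcl1 and the basement membrane collagen Col4a1 include preadipocytes, which lie within the lobules and form adipocytes readily in culture. An adipocyte is wrapped in a basement membrane, whose scaffold is type IV collagen and laminin, whereas interstitial fibroblasts produce fibronectin and fibril-forming collagens.

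The sort was checked first against the markers Dpp4, Pi16, Sparcl1 and Col4a1. Dpp4 had 7170.5, 7850.3, 9994, 8264 and 9449 normalized reads in the DPP4+ libraries, against 105, 67.6, 56.7, 52.2 and 57.9 in the DPP4- libraries. Pi16 had 23811, 25431, 33036, 30707 and 37588 normalized reads in the DPP4+ libraries, against 294, 257, 215, 275 and 365 in the DPP4- libraries. Sparcl1 had 363, 293, 498, 375 and 316 normalized reads in the DPP4+ libraries, against 30528, 23599.7, 28642, 25719 and 25389 in the DPP4- libraries. The groups were far apart in the direction of the label for these 3 genes, and for Col4a1 (below). Of 18 genes known to mark DPP4+ interstitial progenitors 17 were higher, the exception being Tppp3, and of 17 genes of committed preadipocytes 14 were lower. Over all tested genes, 39.8% were higher and 36.9% lower (test given below). The first list includes Dpp4 and Pi16 and the other Sparcl1, Col4a1 and the sort gene Pdgfrb, so these counts are not independent of the sort or of the 4 markers. The DPP4+ libraries held 15.8 to 17.6 M reads (M, 1e+06) and the DPP4- libraries 11.0 to 13.4 M, but their deposited totals were 10.2 to 11.5 M for DPP4+ cells and 16.3 to 17.3 M for DPP4- cells. The 10 genes with the most reads took 10.5 to 13.9% of the reads of DPP4+ libraries and 21.4 to 23.0% of those of DPP4- libraries. Setting all totals equal moved the median log2 difference over all tested genes to 0.64, against 0.03 as deposited, so that the balance of higher and lower genes depends on the scale chosen. Lymphocyte, erythroid, epithelial and mesothelial markers summed to at most 83.9 normalized reads per list in any library, only Krt19 and Cldn3 being tested (both higher), with Krt15 and Hba-a1 at 0 in all 10. Skeletal muscle markers (2 of 3 tested higher, 1 lower) summed to 115 to 138 in DPP4+ and 61.7 to 81.4 in DPP4- libraries. Macrophage markers (4 of 6 tested lower, 1 higher) summed to 145 to 172 in DPP4+ and 253 to 284 in DPP4- libraries. Endothelial markers (6 of 10 lower, 1 higher) summed to 2613 to 3330 in DPP4+ and 1062 to 1505 in DPP4- libraries, with Tek at 2811 against 888 on average. Mast cell and granulocyte markers (2 of 3 lower) summed to 14.9 to 19.6 in DPP4+ and 21.6 to 355 in DPP4- libraries. Schwann cell markers (4 of 5 lower, 1 higher) summed to 202 to 258 in DPP4+ and 388 to 723 in DPP4- libraries. Of 32 cell cycle genes 31 were higher (30 by at least 2-fold, median log2 difference 4.5), with sums of 12142 to 15544 in DPP4+ and 2129 to 2542 in DPP4- libraries. Genes of the response to tissue dissociation were lower (23 of 27, 3 higher), with sums of 92557 to 117715 in DPP4+ and 309731 to 414893 in DPP4- libraries. The part of these cells and of handling in the results below was not tested. In bulk RNA, fewer cells of a kind and less RNA per cell cannot be told apart.

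The 2 populations differed in most of the transcriptome. In DPP4+ cells 5191 genes were higher (39.8% of those tested) and 4808 lower (36.9%), at an adjusted p under 0.05 (limma on log2(value + 1), Benjamini-Hochberg). A difference is given below as DPP4+ minus DPP4- on this scale, which understates the change of genes with few reads. At least 2-fold differences were found for 1820 higher genes (14.0%) and 1725 lower genes (13.2%), and the 5 values of each group did not overlap for 8477 genes (65.0%). With the totals set equal, 9227 genes were higher and 2079 lower. A call alone was therefore common, and counts in a gene list are to be read against these shares. Most genes named below were chosen among those whose groups did not overlap, so where a lack of overlap is stated for them it describes the values and is not a further result.

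Several of the genes that were higher by the widest margin encode secreted or membrane proteins. Sema3e, a secreted guidance cue that binds plexin D1, had 1377, 1343, 1634, 1221 and 1772 normalized reads in the DPP4+ libraries, against 6.75, 7.51, 0, 6.14 and 7.72 in the DPP4- libraries. Igsf1, a membrane glycoprotein of the immunoglobulin superfamily, had 152, 245, 291, 282 and 342 normalized reads in the DPP4+ libraries, against 2.70, 0, 0, 0 and 1.29 in the DPP4- libraries. Egfl6, a secreted protein with EGF-like repeats, had 645, 558, 457, 522 and 503 normalized reads in the DPP4+ libraries, against 1.35, 1.5, 3.78, 0 and 0 in the DPP4- libraries. Each of these genes was near 0 in the DPP4- libraries and at or above 152 in every DPP4+ library (log2 differences 8.11 ± 0.58, 7.37 ± 0.37 and 8.10 ± 0.37 SE, adjusted p = 9.13e-07, 1.24e-10 and 3.95e-10, limma). Acta2, the actin of smooth muscle and myofibroblasts, had 6888, 6239.9, 5221, 6254 and 5629.6 normalized reads in the DPP4+ libraries, against 16.2, 39.0, 68.0, 66.0 and 38.6 in the DPP4- libraries. On the list of pericyte and smooth muscle genes, 5 of 13 tested were higher and 6 lower, with sums of 10309 to 13296 in DPP4+ libraries and 4490.0 to 5998 in DPP4- libraries. Tagln and Cnn1, contractile genes like Acta2, were higher in DPP4+ cells (3699.8 against 74.9 and 211 against 2.25 normalized reads). Abcc9, Notch3 and Ndufa4l2, which mark pericytes, were lower (222 against 2558, 239 against 1594 and 2.37 against 178). Further members of the list were called in each direction and are not named here. A split between contractile and pericyte genes is thus described only for those named.

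At the other end of the range stood ion channels, a peptide receptor and an enzyme of lipid metabolism. Kcna2, a voltage-gated potassium channel, had 1.87, 4.58, 4.34, 2.51 and 0 normalized reads in the DPP4+ libraries, against 204, 381, 484, 307 and 194 in the DPP4- libraries. Oprd1, the delta opioid receptor, had 0, 0, 0, 0 and 0.727 normalized reads in the DPP4+ libraries, against 71.6, 90.1, 136, 123 and 100.3 in the DPP4- libraries. The 5 DPP4+ libraries held a single read of Oprd1 in all. Lsamp, a neural adhesion molecule, and Cacna1e, a calcium channel subunit, were lower as well (1.37 against 154 and 0.381 against 94.5 normalized reads). Acsbg1, an acyl-CoA synthetase, had 0, 0, 0.724, 1.88 and 0.727 normalized reads in the DPP4+ libraries, against 153, 102, 119.7, 132 and 159 in the DPP4- libraries. The groups did not overlap for these genes, as the rule that chose them required.

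**Figure D1:**
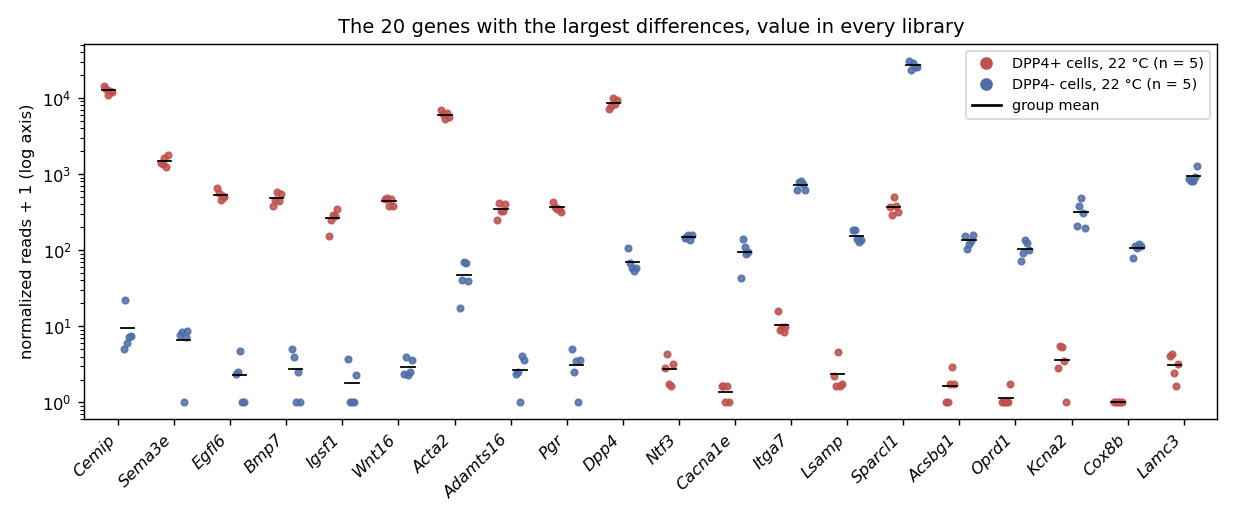
Normalized reads plus 1 (log axis) in each of the 10 libraries for the 20 genes with the largest fitted rise or fall among genes whose groups did not overlap, DPP4+ libraries in red and DPP4- libraries in blue, with group means as lines. The red points of Dpp4, Sema3e and Acta2 all lie at or above 1221, and Cox8b is at 0 in all 5 DPP4+ libraries.

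Among transcription factors, the HOX family, which records position along the body axis, was mostly higher in DPP4+ cells. Of 28 tested members, 20 were higher and 2 lower (25 and 0 with the totals set equal), where 39.8% of all tested genes were higher and 36.9% lower. At least 2-fold differences were all in one direction, 14 higher and 0 lower, and the median log2 difference was 0.90 (1.48 with the totals set equal, 0.67 after quantile normalization). Hoxb9 had 60.3, 58.3, 50.7, 68.9 and 51.6 normalized reads in the DPP4+ libraries, against 2.70, 0, 2.52, 4.61 and 1.29 in the DPP4- libraries. Hoxb7 had 61.6, 57.6, 42.7, 58.3 and 38.5 normalized reads in the DPP4+ libraries, against 2.70, 3.0, 7.56, 6.14 and 5.14 in the DPP4- libraries. Hoxa10 had 169.8, 161, 134, 167 and 141 normalized reads in the DPP4+ libraries, against 23.0, 22.5, 32.7, 24.6 and 10.3 in the DPP4- libraries. Hoxb9, Hoxb7 and Hoxa10 were separated without overlap (log2 differences 4.4 ± 0.37, 3.21 ± 0.26 and 2.80 ± 0.23 SE, adjusted p = 1.53e-08, 1.20e-08 and 2.77e-08, limma). All 8 tested Hoxb genes were higher in DPP4+ cells, with log2 differences of 1.6 for Hoxb2, 1.17 for Hoxb3, 0.60 for Hoxb4, 1.58 for Hoxb5, 1.04 for Hoxb6 and 3.57 for Hoxb8. In the Hoxa and Hoxc clusters the largest differences were those of the highest-numbered members tested, Hoxa10 and Hoxc13 (32.5 against 0.564 normalized reads, log2 difference 4.55 ± 0.35 SE). Hoxa3 and Hoxc4 were slightly lower (-0.35 and -0.27), and both turned positive (0.25 and 0.34) with the totals set equal. Neither passed the test without replicate 2 of the DPP4+ libraries, or without replicate 3 or 4 of the DPP4- libraries (adjusted p of 0.053 to 0.0903, limma). The strand of the libraries is not stated in the sources used here, so reads of overlapping antisense transcripts cannot be told apart from those of the HOX genes.

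**Figure D2:**
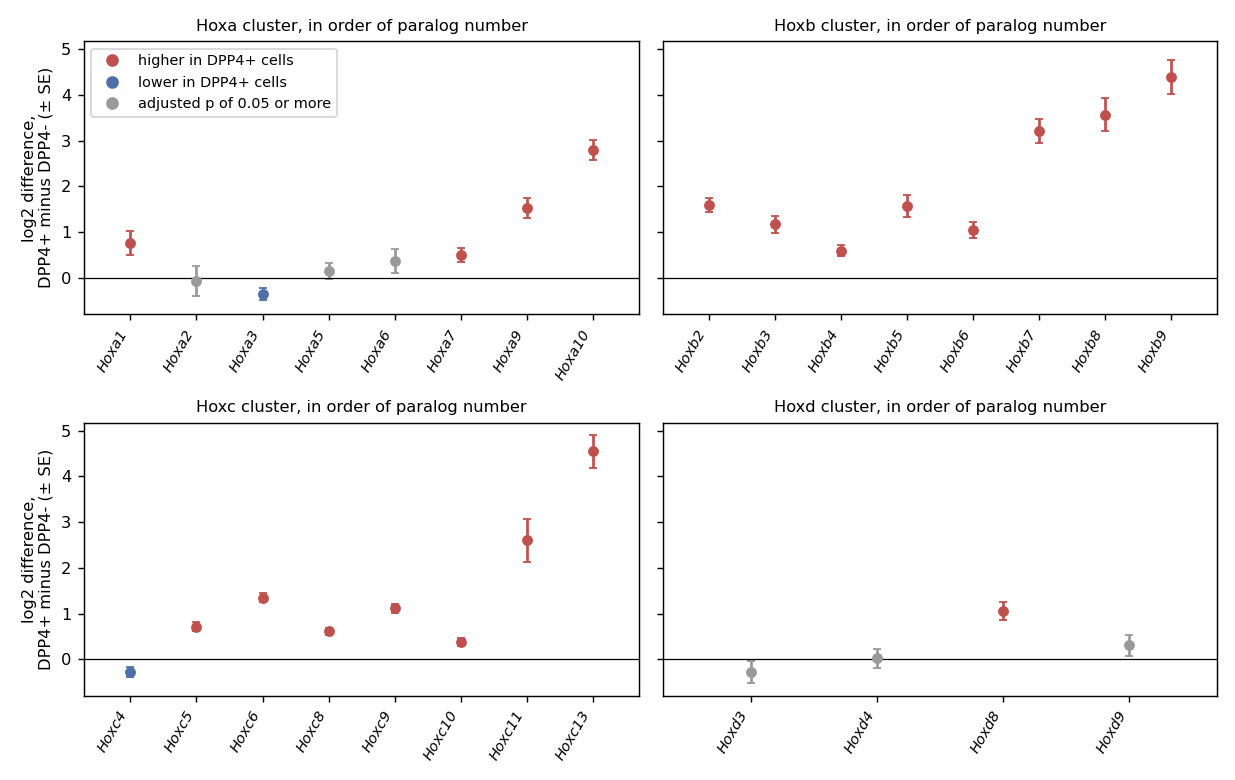
Fitted log2 difference, DPP4+ minus DPP4- cells, with its standard error for the 28 tested HOX genes, by cluster and in order of paralog number. All Hoxb genes lie above 0, and Hoxb9 and Hoxc13 lie above 4.

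Other patterning factors moved in both directions. Of 56 developmental and mesenchymal factors, 23 were higher and 27 lower, with 16 and 16 at least 2-fold (32 higher and 18 lower with the totals set equal). Pitx1, a homeobox factor of hindlimb identity, had 90.8, 61.6, 49.9, 68.9 and 76.3 normalized reads in the DPP4+ libraries, against 6.75, 4.5, 1.26, 6.14 and 1.29 in the DPP4- libraries. Tbx5, a T-box factor of the forelimb and heart, was 168 ± 13.8 in DPP4+ cells against 21.1 ± 7.26 in DPP4- cells (SD, n = 5 each), and the Iroquois factor Irx5 was 115 ± 3.90 in DPP4+ cells against 16.8 ± 4.65 in DPP4- cells (SD, n = 5 each). Meox1, a homeobox factor of the somites, was 2.52 ± 1.61 in DPP4+ cells against 89.3 ± 12.7 in DPP4- cells, and Heyl, a target of Notch signalling, was 1.5 ± 1.29 in DPP4+ cells against 76.1 ± 22.6 in DPP4- cells (SD, n = 5 each). Prrx1, the paired-related factor of limb mesenchyme, was higher as well (9396 against 4809 normalized reads, log2 difference 0.97 ± 0.06 SE).

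Several genes of the Hedgehog pathway were lower in DPP4+ cells. Hedgehog ligands release the signal transducer Smo from inhibition by the receptor Ptch1, and Gli1, Ptch1 and Hhip are transcribed in response. Gli1 had 6.22, 7.86, 5.79, 2.51 and 9.45 normalized reads in the DPP4+ libraries, against 293, 275, 319.9, 322 and 410.2 in the DPP4- libraries. Hhip, a decoy for the ligand, had 11.2, 10.5, 7.24, 6.26 and 9.45 normalized reads in the DPP4+ libraries, against 139, 131, 144, 213 and 209.6 in the DPP4- libraries. Both were lower in DPP4+ cells without overlap (log2 differences -5.54 ± 0.24 and -4.08 ± 0.19 SE, adjusted p = 1.38e-11 and 1.46e-11, limma). Gli2, Gli3 and the coreceptor Boc were lower too, by smaller margins (log2 differences -1.48, -0.90 and -1.11). The coreceptors Cdon and Gas1 and Smo itself were slightly higher (0.24, 0.55 and 0.28). Ptch1 was not called, at 59.4 ± 9.69 in DPP4+ cells against 66.5 ± 22.7 in DPP4- cells (SD, n = 5 each, adjusted p = 0.681, limma), and its difference was positive and past the threshold with the totals set equal (0.50). Of the 22 Wnt and Hedgehog receptors and coreceptors tested, 13 were higher and 7 lower (16 and 5 with the totals set equal).

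Nuclear receptors were more often higher than lower in DPP4+ cells, 18 against 8 of 33 tested (26 against 7 with the totals set equal), with a median log2 difference of 0.25. Pgr, the progesterone receptor, had 435, 373, 352, 346 and 313 normalized reads in the DPP4+ libraries, against 4.05, 1.5, 2.52, 0 and 2.57 in the DPP4- libraries. Vdr, the vitamin D receptor, had 124, 132, 94.8, 126 and 101 normalized reads in the DPP4+ libraries, against 16.2, 12, 16.4, 9.21 and 16.7 in the DPP4- libraries. Rorb, an orphan receptor, was 152 ± 12.2 in DPP4+ cells against 22.1 ± 5.10 in DPP4- cells (SD, n = 5 each). All 3 were higher without overlap, and Pgr was among the widest separations in the table (log2 difference 7.04 ± 0.34 SE, adjusted p = 3.14e-10, limma). Esr1, the alpha estrogen receptor, moved the other way at 622 ± 95.7 in DPP4+ cells against 1599.5 ± 52.0 in DPP4- cells, as did Nr1h3, the liver X receptor alpha, at 107 ± 15.5 in DPP4+ cells against 396 ± 53.7 in DPP4- cells (SD, n = 5 each).

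Factors of adipocyte formation did not move as a block. Of 29 tested, 12 were higher and 13 lower (16 and 7 with the totals set equal). Cebpa, which acts with Pparg in the differentiating adipocyte, had 1562, 1475, 1245, 1516 and 1297 normalized reads in the DPP4+ libraries, against 469.9, 455, 491, 484 and 454 in the DPP4- libraries. Pparg itself, the main adipogenic nuclear receptor, had 109, 116, 89.0, 113 and 96.7 normalized reads in the DPP4+ libraries, against 278, 309, 268, 305 and 309 in the DPP4- libraries. The pair thus differed in opposite directions, without overlap in either (log2 difference 1.58 ± 0.06 SE, adjusted p = 2.48e-12 for Cebpa; log2 difference -1.48 ± 0.09 SE, adjusted p = 2.32e-10 for Pparg, limma). Stat5a, a transducer of cytokine and growth hormone signals, was lower (876 ± 171 in DPP4+ cells against 4351 ± 549 in DPP4- cells), as were Klf5 (31.1 ± 6.25 in DPP4+ cells against 139 ± 17.2 in DPP4- cells) and Zbtb16 (1959 ± 409 in DPP4+ cells against 6159 ± 717 in DPP4- cells, SD, n = 5 each). Zfp467, a zinc finger factor that promotes adipogenesis, was higher at 91.6 ± 12.4 in DPP4+ cells against 28.3 ± 8.84 in DPP4- cells.

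**Figure D3:**
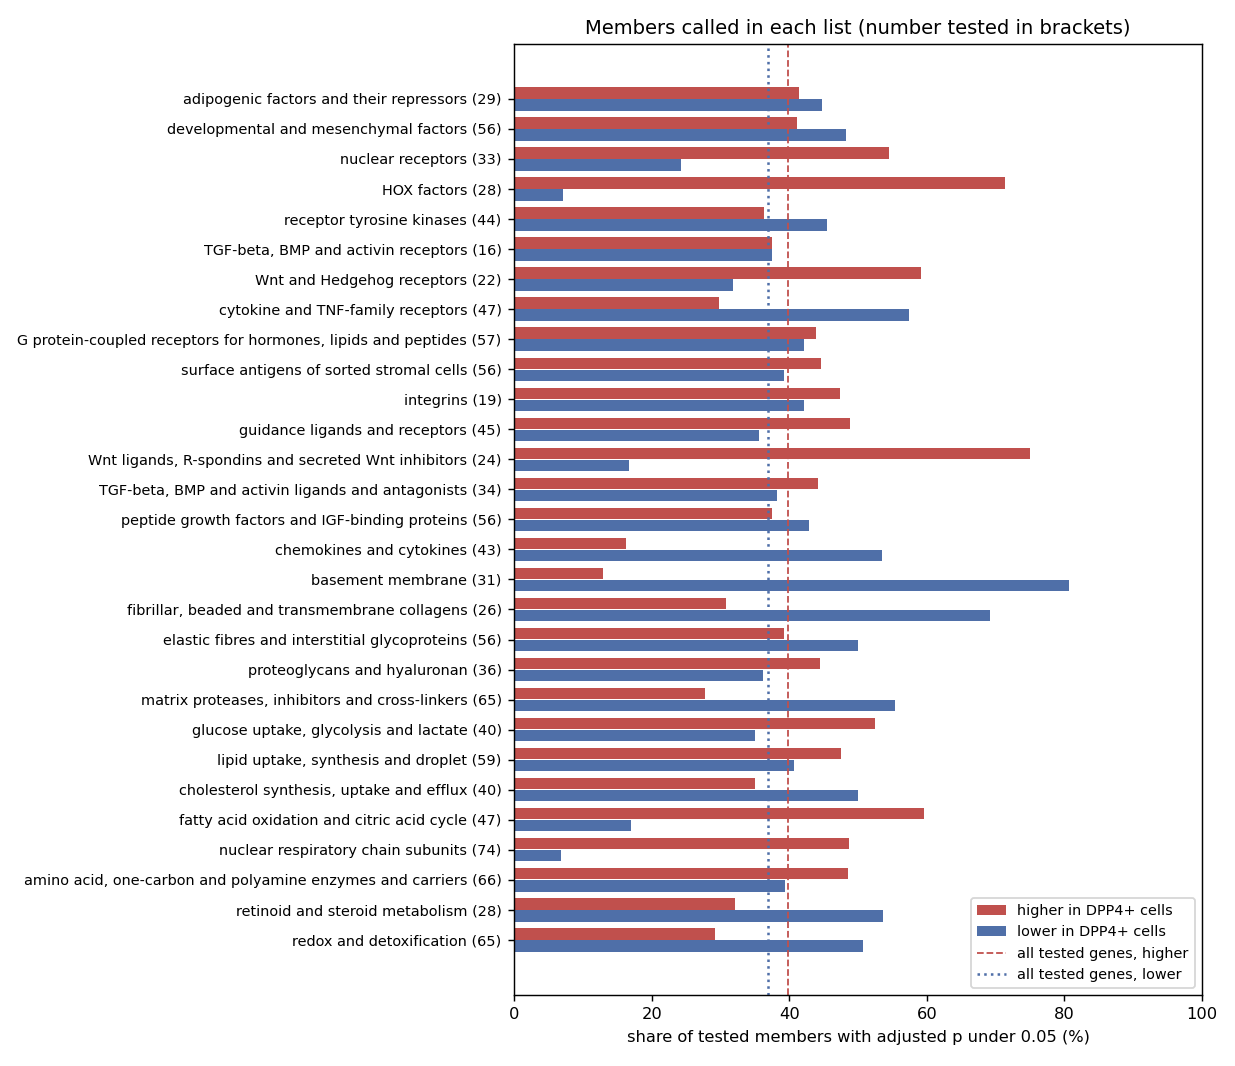
Share of tested members of each of 29 gene lists that were higher (red) or lower (blue) in DPP4+ cells at an adjusted p under 0.05, with the shares over all tested genes as vertical lines (39.8% and 36.9%). HOX factors and Wnt ligands lie furthest to the higher side, and basement membrane and other collagens to the lower side.

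Surface receptors for peptide growth factors were split. Of 44 receptor tyrosine kinases, 16 were higher and 20 lower (24 and 11 with the totals set equal). Ptk7, a pseudokinase of planar cell polarity, had 379.9, 389.7, 289, 331 and 284 normalized reads in the DPP4+ libraries, against 16.2, 48.0, 41.6, 43.0 and 36.0 in the DPP4- libraries. Ret, the receptor of GDNF family ligands, had 26.7, 48.5, 34.0, 37.0 and 43.6 normalized reads in the DPP4+ libraries, against 585, 531, 609.6, 414 and 383 in the DPP4- libraries. The collagen receptor Ddr1 was higher (885 ± 54.4 in DPP4+ cells against 274 ± 17.1 in DPP4- cells), and Mertk, a receptor in the uptake of dead cells, was lower (27.0 ± 4.81 in DPP4+ cells against 161 ± 32.8 in DPP4- cells, SD, n = 5 each). Egfr, the receptor of epidermal growth factor, was lower at 9858 ± 891 in DPP4+ cells against 24079 ± 1271 in DPP4- cells.

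Genes of the neurotrophin system stood on both sides. Ntf3, the ligand neurotrophin-3, had 1.87, 3.27, 0.724, 0.626 and 2.18 normalized reads in the DPP4+ libraries, against 144, 149, 156, 137 and 158 in the DPP4- libraries. Ntrk3, the receptor of neurotrophin-3, was lower in DPP4+ cells as well (61.7 ± 10.2 in DPP4+ cells against 145 ± 19.2 in DPP4- cells, SD, n = 5 each). Ntrk2 was lower by a margin that turned positive under other scalings (log2 difference -0.20; 0.41 with the totals set equal, 0.26 after quantile normalization). Ngfr, the p75 receptor that binds all neurotrophins, went the other way with 813, 743, 593, 715 and 673 normalized reads in the DPP4+ libraries, against 2.70, 16.5, 11.3, 55.3 and 27.0 in the DPP4- libraries. The Schwann cell marker sum was highest in DPP4- replicate 4, which also had the highest Ngfr of its group (55.3) but the lowest Ntf3 (137). The part of Schwann cells in these values was not tested.

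Receptors of cytokines and of the TNF family were more often lower, 27 against 14 higher of 47 tested, an order that was reversed with the totals set equal (18 lower and 25 higher). Cntfr, the binding subunit for ciliary neurotrophic factor, had 19.9, 23.6, 23.2, 23.2 and 21.8 normalized reads in the DPP4+ libraries, against 499.6, 676, 629, 586 and 637 in the DPP4- libraries. Its signalling partners Lifr (459 ± 14.7 in DPP4+ cells against 1427 ± 158 in DPP4- cells) and Il6st (11625 ± 324 in DPP4+ cells against 18469 ± 433 in DPP4- cells) were lower by smaller margins (SD, n = 5 each), and Il6st was not called with the totals set equal or after quantile normalization (log2 differences -0.06 and 0.09). Clcf1, a cytokine that also acts through this receptor, did not pass the test as deposited (23.8 ± 3.0 in DPP4+ cells against 18.0 ± 4.62 in DPP4- cells, adjusted p = 0.086, limma). With the totals set equal Clcf1 was higher (log2 difference 1.0). Tnfrsf11b, the decoy receptor osteoprotegerin, was higher (60.7 ± 9.27 in DPP4+ cells against 3.30 ± 2.0 in DPP4- cells), and Csf2rb, the shared chain of the receptors for GM-CSF, interleukin 3 and interleukin 5, was lower (9.48 ± 3.94 in DPP4+ cells against 344 ± 138 in DPP4- cells, SD, n = 5 each). How reads were divided between Csf2rb and its near-identical copy Csf2rb2 is not known, so this value is uncertain.

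G protein-coupled receptors for hormones, lipids and peptides were found on both sides, 25 higher and 24 lower of 57 tested, 19 and 17 of them by at least 2-fold (33 higher and 17 lower with the totals set equal). Htr2a, a serotonin receptor, had 108, 103, 89.7, 93.3 and 77.8 normalized reads in the DPP4+ libraries, against 0, 1.5, 0, 1.54 and 3.86 in the DPP4- libraries. Oxtr, the oxytocin receptor, was 65.7 ± 8.44 in DPP4+ cells against 1.66 ± 1.52 in DPP4- cells, and Gpr1, a receptor of chemerin, was 129.8 ± 24.0 in DPP4+ cells against 1.81 ± 1.72 in DPP4- cells (SD, n = 5 each). Lower were the bradykinin receptor Bdkrb1 (3.24 against 72.4 normalized reads), the nucleotide receptor P2ry1 (6.85 against 88.0) and Ptger3, a receptor of prostaglandin E2 (12.7 against 153). The groups did not overlap for any of these 6 receptors, and Htr2a, Oxtr and Gpr1 were near 0 in DPP4- cells.

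Surface antigens and integrins differed in both directions. Among 56 genes listed as surface antigens, 25 were higher and 22 lower (36 and 17 with the totals set equal). Enpp2 is on that list although it encodes a secreted enzyme, autotaxin, which makes lysophosphatidic acid. Enpp2 had 275, 217, 222, 194 and 222 normalized reads in the DPP4+ libraries, against 6208, 7539, 6366, 5907 and 6944 in the DPP4- libraries. Mme, the peptidase neprilysin (CD10), had 181, 189, 183, 187 and 202 normalized reads in the DPP4+ libraries, against 2399.6, 2615, 2328, 2211 and 2459 in the DPP4- libraries, and Cd38, which consumes NAD, was 14.3 ± 2.99 in DPP4+ cells against 307 ± 50.4 in DPP4- cells (SD, n = 5 each). On the other side, Anxa3, an annexin, had 5302, 6227, 6215, 6527 and 6775 normalized reads in the DPP4+ libraries, against 425, 294, 208, 244 and 271 in the DPP4- libraries, and the cadherin Cdh2 was 494 ± 48.0 in DPP4+ cells against 36.1 ± 4.47 in DPP4- cells. Of 19 integrins, 9 were higher and 8 lower (11 and 5 with the totals set equal). Itga7, the alpha chain of a laminin receptor, had 14.9, 7.86, 8.68, 7.52 and 8.72 normalized reads in the DPP4+ libraries, against 623, 775, 804, 739.9 and 609.5 in the DPP4- libraries. Itgb7, a beta chain best known from lymphocytes, had 415, 403, 633, 611 and 593 normalized reads in the DPP4+ libraries, against 4.05, 3.0, 13.9, 6.14 and 7.72 in the DPP4- libraries. The collagen-binding chains Itga2 (267 against 81.8 normalized reads) and Itga11 (2694 against 1236) were higher, and the fibronectin-binding chain Itga5 was lower (4474 against 15403). Itgb1, the beta chain that most of these alpha chains share, was 10132 ± 167 in DPP4+ cells against 10093 ± 693 in DPP4- cells (SD, n = 5 each, adjusted p = 0.91, limma), and was higher by 0.62 on the log2 scale, past the threshold, with the totals set equal.

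Genes of Wnt ligands and their secreted modulators were mostly higher in DPP4+ cells. Of 24 Wnt ligands, R-spondins and secreted inhibitors, 18 were higher and 4 lower, 14 and 1 by at least 2-fold (20 and 1 called with the totals set equal). The median log2 difference was 1.25, 1.86 with the totals set equal and 1.35 after quantile normalization. Wnt10b, a ligand known to inhibit adipogenesis in mice, had 756, 660.1, 940.1, 768 and 1069 normalized reads in the DPP4+ libraries, against 10.8, 3.0, 7.56, 6.14 and 9.0 in the DPP4- libraries. Both groups of values were far apart (log2 difference 6.73 ± 0.25 SE, adjusted p = 4.84e-11, limma). Dact2, an intracellular modulator of the pathway, was 316 ± 64.5 in DPP4+ cells against 13.4 ± 4.47 in DPP4- cells (SD, n = 5 each). Rspo1, a secreted amplifier of Wnt signals, was the single member lower by at least 2-fold (28.1 ± 5.63 in DPP4+ cells against 74.7 ± 12.9 in DPP4- cells, SD, n = 5 each). R-spondins bind Lgr receptors, and Lgr5 and Lgr6 were higher in DPP4+ cells. Lgr6 had 77.7, 77.3, 53.6, 63.9 and 75.6 normalized reads in the DPP4+ libraries, against 1.35, 0, 0, 3.07 and 0 in the DPP4- libraries, and Lgr5 was 106 ± 11.5 in DPP4+ cells against 15.2 ± 8.43 in DPP4- cells. The frizzled receptor Fzd2 was higher (548 ± 53.9 in DPP4+ cells against 84.5 ± 12.8 in DPP4- cells) and the coreceptor Lrp5 lower (704 ± 26.6 in DPP4+ cells against 2654 ± 124 in DPP4- cells, SD, n = 5 each).

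Ligands of the TGF-beta superfamily, listed together with their antagonists and binding proteins, went both ways, 15 higher and 13 lower of 34 tested (21 and 6 with the totals set equal). Ltbp2, a matrix protein related to the binders of latent TGF-beta, had 3683, 3362, 2753, 3163 and 3021 normalized reads in the DPP4+ libraries, against 17.6, 37.5, 23.9, 67.5 and 39.9 in the DPP4- libraries. The bone morphogenetic protein Bmp3 was 140.0 ± 28.8 in DPP4+ cells against 3.03 ± 2.39 in DPP4- cells. Inhba and Inhbb, the beta subunits of activin, were both higher (283 against 20.9 and 478 against 26.4 normalized reads). Bmper, which binds bone morphogenetic proteins, and Ltbp4 were lower (676 against 4660.2 and 1547 against 8046).

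Receptors of the same superfamily differed less, 6 higher and 6 lower of 16 tested (11 and 1 with the totals set equal), 3 higher and 0 lower by at least 2-fold. Acvr1c, the receptor ALK7 of fat tissue, was 27.2 ± 3.46 in DPP4+ cells against 6.53 ± 4.32 in DPP4- cells, Rgma, a coreceptor of bone morphogenetic proteins, was 585 ± 31.6 in DPP4+ cells against 205 ± 22.6 in DPP4- cells, and Tgfbr1, a type I receptor of TGF-beta, was 1567 ± 82.6 in DPP4+ cells against 748 ± 84.6 in DPP4- cells (SD, n = 5 each). All 3 were higher in DPP4+ cells.

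Axon guidance genes, which also serve the patterning of vessels and nerves, were found on both sides, with 22 higher and 16 lower of 45 tested (30 and 10 with the totals set equal). Beside Sema3e, the plexin Plxnc1 was higher in DPP4+ cells (312 ± 27.5 in DPP4+ cells against 20.6 ± 11.2 in DPP4- cells), while Sema7a, the semaphorin that binds it, was lower (33.7 ± 2.53 in DPP4+ cells against 149 ± 28.0 in DPP4- cells, SD, n = 5 each). Sema4a, a membrane semaphorin, was lower (43.4 ± 11.4 in DPP4+ cells against 379 ± 101 in DPP4- cells), as was the neuropilin Nrp1, a coreceptor of class 3 semaphorins and of VEGF (1700.0 ± 86.6 in DPP4+ cells against 4146 ± 278 in DPP4- cells, SD, n = 5 each). The groups did not overlap for these genes.

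Peptide growth factors included several that were close to 0 in one population. Edn1, the vasoconstrictor endothelin-1, had 253, 238, 237, 246 and 284 normalized reads in the DPP4+ libraries, against 5.40, 4.5, 8.82, 4.61 and 2.57 in the DPP4- libraries. Igfbp2, an IGF-binding protein, was 157 ± 11.4 in DPP4+ cells against 3.39 ± 2.44 in DPP4- cells, and Pgf, a ligand of the VEGF receptor Flt1, was 177 ± 50.7 in DPP4+ cells against 12 ± 4.2 in DPP4- cells (SD, n = 5 each). Btc, a ligand of the EGF receptor, had 2.49, 5.24, 2.89, 4.38 and 5.82 normalized reads in the DPP4+ libraries, against 158, 229.7, 184, 149 and 184 in the DPP4- libraries, so that Btc and its receptor Egfr were both lower in DPP4+ cells. Fgf23, an endocrine factor of phosphate balance, was lower (6.05 ± 3.97 in DPP4+ cells against 192 ± 107 in DPP4- cells). Over the 56 members tested, 21 were higher and 24 lower (30 and 18 with the totals set equal).

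Chemokines and cytokines were mostly lower in DPP4+ cells, 23 against 7 higher of 43 tested (17 against 15 with the totals set equal), and 16 against 4 by at least 2-fold. Cxcl14, a chemokine of fibroblasts, had 490.0, 502, 425, 487 and 486 normalized reads in the DPP4+ libraries, against 22612, 15915, 15502, 15817 and 22353 in the DPP4- libraries. Cxcl9, a chemokine induced by interferon gamma, had 32.3, 99.5, 57.9, 103 and 71.3 normalized reads in the DPP4+ libraries, against 2313, 4343, 3120.0, 4119 and 3592 in the DPP4- libraries. Both groups of values were far apart (log2 difference -5.25 ± 0.11 SE, adjusted p = 8.56e-14 for Cxcl14; log2 difference -5.65 ± 0.33 SE, adjusted p = 1.75e-07 for Cxcl9, limma). Il1rn, the antagonist of the interleukin 1 receptor, was higher instead (91.1 ± 8.27 in DPP4+ cells against 5.88 ± 4.87 in DPP4- cells), while the receptor Il1r1 was lower (9484 ± 1071 in DPP4+ cells against 35223 ± 1572 in DPP4- cells, SD, n = 5 each). The dissociation and immediate early genes, which moved with this group, had a median log2 difference of -1.85, and their part in it was not tested.

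Genes of the basement membrane were mostly lower in DPP4+ cells. Of 31 basement membrane genes, 25 were lower and 4 higher, 15 and 3 by at least 2-fold. The median log2 difference was -0.75 (-0.14 with the totals set equal, where 14 were lower and 11 higher). The proteoglycan Hspg2 (perlecan) was 26999 ± 1704 in DPP4+ cells against 105132 ± 11255 in DPP4- cells, and Egflam (pikachurin) was 5.28 ± 2.35 in DPP4+ cells against 185 ± 46.5 in DPP4- cells (SD, n = 5 each). Against the direction of the group, Npnt, a ligand of integrin alpha 8 beta 1, had 124, 119, 86.8, 117 and 105 normalized reads in the DPP4+ libraries, against 4.05, 4.5, 0, 3.07 and 3.86 in the DPP4- libraries, and the laminin chain Lamb3 was 126 ± 39.9 in DPP4+ cells against 11.2 ± 3.24 in DPP4- cells.

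The 6 chains of type IV collagen are encoded in 3 pairs of genes that face away from each other across a short start region, and as deposited the members of each pair differed in the same direction. On GRCm38 the RefSeq gene bounds of Col4a1 (chr8:11198423-11312889) and Col4a2 (chr8:11312805-11449287) overlap by 85 bases. Those of Col4a4 (chr1:82448419-82587034) and Col4a3 (chr1:82586921-82722059) overlap by 114 bases, and between Col4a6 (chrX:141165403-141474095) and Col4a5 (chrX:141475370-141689236) lie 1274 bases. Col4a1 had 10135, 11411, 10923, 11231 and 11344 normalized reads in the DPP4+ libraries, against 200009, 155849.7, 157443, 165377 and 183321 in the DPP4- libraries. Col4a2 had 6734, 7596, 6621, 7054 and 6796 normalized reads in the DPP4+ libraries, against 96778, 82407, 83431, 88464 and 94342 in the DPP4- libraries. Col4a3 was 120.3 ± 16.9 in DPP4+ cells against 2190.4 ± 299 in DPP4- cells, and Col4a4 was 175 ± 29.6 in DPP4+ cells against 2069.7 ± 326 in DPP4- cells (SD, n = 5 each). The log2 differences were -3.96 ± 0.08 and -3.68 ± 0.07 SE in the first pair and -4.18 ± 0.11 and -3.56 ± 0.13 in the next (adjusted p = 1.55e-15, 9.63e-16, 1.71e-13 and 4.97e-11, limma). In the X-linked pair they were far smaller, -0.28 ± 0.10 for Col4a5 and -0.37 ± 0.14 for Col4a6, and became 0.33 and 0.23 with the totals set equal. After quantile normalization the X-linked pair differed in opposite directions, 0.15 for Col4a5 (not called) and -0.65 for Col4a6 (called). Col4a6 did not pass the test with all 20 libraries in the fit (adjusted p = 0.0746, limma), or without replicate 1 or 4 of the DPP4+ libraries or replicate 1 of the DPP4- libraries (adjusted p of 0.0595 to 0.0647, limma).

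The start regions of Col4a1 and Col4a2 are shown because their windows share bases, and that of Col4a4 because its gene model overlaps the start of Col4a3. Each line gives a RefSeq window on GRCm38.p6, 250 bases before to 50 after an annotated start, on the gene's own strand. Capitals mark CCAAT and GGGCGG, the letters bound by NF-Y and by Sp1-type factors, searched on both strands (ATTGG and CCGCCC are the same strings read on the other strand) and never overlapping in these windows. The windows are chr8:11312777-11313076 on the minus strand for Col4a1, chr8:11312555-11312854 on the plus strand for Col4a2 and chr1:82586800-82587099 on the minus strand for Col4a4.
Col4a1: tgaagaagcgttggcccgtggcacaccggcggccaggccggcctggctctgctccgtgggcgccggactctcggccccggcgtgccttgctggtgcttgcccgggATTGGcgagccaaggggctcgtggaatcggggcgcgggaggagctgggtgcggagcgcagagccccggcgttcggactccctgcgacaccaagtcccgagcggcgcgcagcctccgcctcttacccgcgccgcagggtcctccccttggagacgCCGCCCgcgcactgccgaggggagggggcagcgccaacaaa
Col4a2: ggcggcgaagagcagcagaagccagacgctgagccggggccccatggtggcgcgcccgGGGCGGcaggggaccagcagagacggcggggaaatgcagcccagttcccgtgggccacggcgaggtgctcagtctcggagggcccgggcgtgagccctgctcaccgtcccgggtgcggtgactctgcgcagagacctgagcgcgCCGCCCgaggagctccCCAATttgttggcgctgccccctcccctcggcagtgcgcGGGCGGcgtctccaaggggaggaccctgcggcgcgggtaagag
Col4a4: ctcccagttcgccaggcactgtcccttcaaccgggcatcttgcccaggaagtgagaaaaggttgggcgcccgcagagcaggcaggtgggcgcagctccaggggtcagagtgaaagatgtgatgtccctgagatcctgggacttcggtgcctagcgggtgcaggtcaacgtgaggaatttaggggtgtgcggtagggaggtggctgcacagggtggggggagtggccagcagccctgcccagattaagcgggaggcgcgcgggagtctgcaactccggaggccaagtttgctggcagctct
The Col4a1 and Col4a2 windows share 78 bases on opposite strands. The first holds 1 CCAAT and 1 GGGCGG, the next holds 1 and 3, and neither string is in the Col4a4 window. The GGGCGG of the Col4a1 window lies in the shared bases and is the same site as 1 of the 3 in the Col4a2 window. Over all 32851 windows of the table, 37.4% hold CCAAT and 35.7% hold GGGCGG, so their presence is common.

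Other collagens differed in both directions. Of 26 tested, 18 were lower and 8 higher, 15 and 7 by at least 2-fold, with a median log2 difference of -1.24 (-0.63 with the totals set equal). Col12a1, a collagen that binds the surface of fibrils, had 23064, 21346, 18296, 19714 and 19988 normalized reads in the DPP4+ libraries, against 469.9, 791, 611, 669 and 715 in the DPP4- libraries. Col24a1, a minor fibrillar collagen, had 524, 458, 396, 415 and 372 normalized reads in the DPP4+ libraries, against 0, 1.5, 5.04, 9.21 and 2.57 in the DPP4- libraries. Col5a3, a chain of the fibril-regulating type V, had 3832, 6671, 6523, 6456 and 6418 normalized reads in the DPP4+ libraries, against 93436, 76448, 77083, 76073 and 76108 in the DPP4- libraries. The 2 that were higher and the 1 that was lower were all apart without overlap (log2 differences 4.99 ± 0.12, 6.93 ± 0.52 and -3.76 ± 0.14 SE, adjusted p = 2.58e-13, 4.27e-07 and 8.22e-12, limma). The main fibrillar chains Col1a1, Col1a2 and Col3a1 were lower as well (-1.51, -1.35 and -1.88), but none of the 3 was called after quantile normalization (0.08, -0.28 and 0.09), where genes with the most reads are drawn together. The beaded chains Col6a1, Col6a2 and Col6a3 were lower (-1.62, -2.28 and -2.90).

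**Figure D4:**
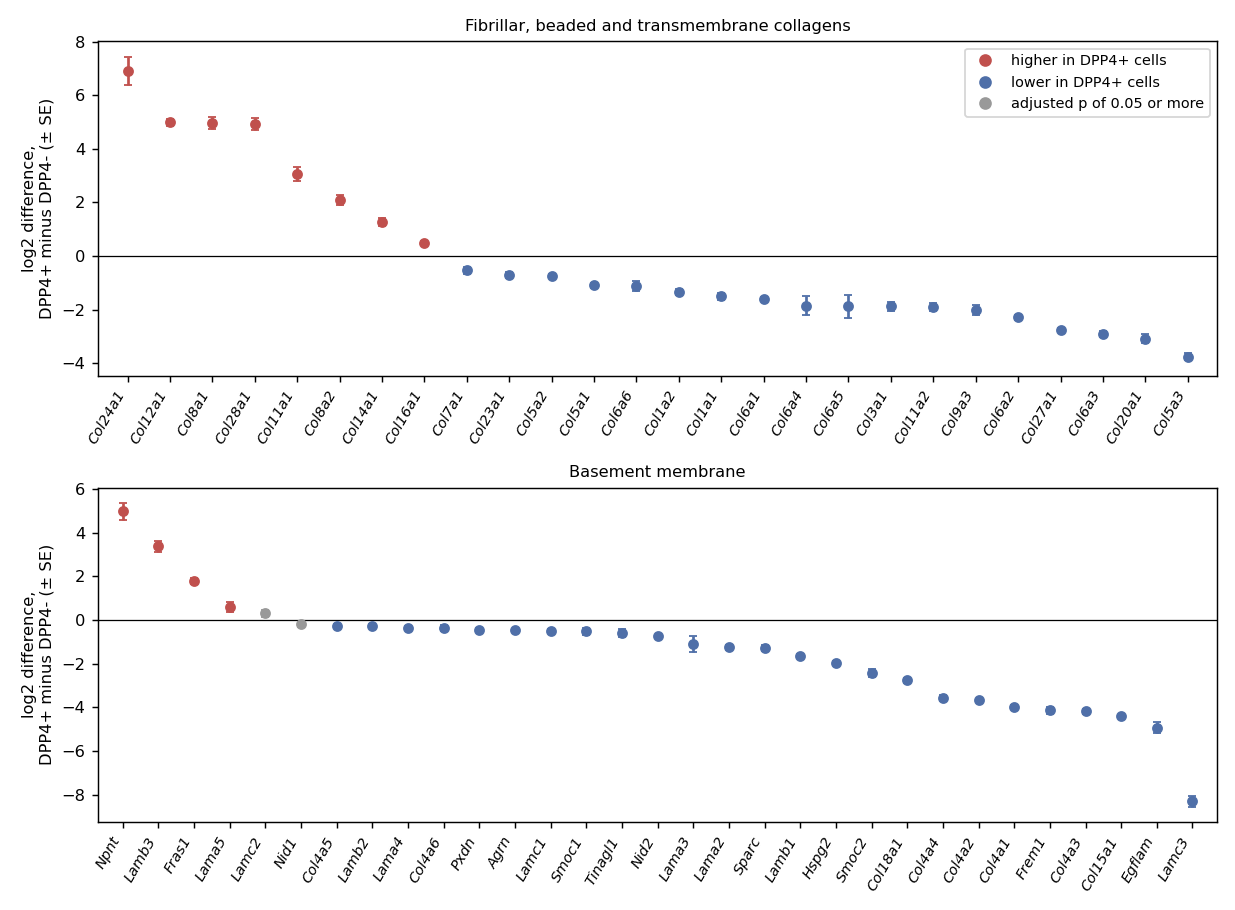
Fitted log2 difference, DPP4+ minus DPP4- cells, with its standard error for 26 fibrillar, beaded and transmembrane collagens (top) and 31 basement membrane genes (bottom), ordered by size. Most points lie below 0, Lamc3 lowest, while Col24a1, Col12a1, Col8a1, Col28a1 and Npnt lie near or above 5.

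Glycoproteins of the interstitium included some that were higher in DPP4+ cells by wide margins. Tnc, the adhesion-modulating tenascin C, had 5720.3, 5032, 4313, 4901 and 4644 normalized reads in the DPP4+ libraries, against 45.9, 269, 134, 132 and 95.2 in the DPP4- libraries. Fn1, fibronectin, had 188831, 228710.0, 238544, 209211 and 245535 normalized reads in the DPP4+ libraries, against 51711, 45503, 44790.3, 54926 and 48321 in the DPP4- libraries. The groups did not overlap in either gene (log2 difference 5.39 ± 0.40 SE, adjusted p = 1.07e-06 for Tnc; log2 difference 2.18 ± 0.10 SE, adjusted p = 6.15e-12 for Fn1, limma). Spp1, osteopontin, was 477 ± 56.5 in DPP4+ cells against 7.08 ± 6.58 in DPP4- cells, and Crispld1, a secreted protein of the CAP superfamily to which Pi16 belongs, was 659 ± 116 in DPP4+ cells against 28.2 ± 7.07 in DPP4- cells (SD, n = 5 each). Vtn, the adhesive protein vitronectin, and Fbln7, a fibulin, were lower (116 against 1848 and 127 against 1389 normalized reads). Of 56 tested, 22 were higher and 28 lower (34 and 19 with the totals set equal).

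Proteoglycans, proteases and cross-linking enzymes completed the matrix. Lum, the collagen-binding proteoglycan lumican, had 1415, 2609, 2246, 2199 and 2399 normalized reads in the DPP4+ libraries, against 25435, 29193, 27117, 25562 and 27428 in the DPP4- libraries. Spock3, a secreted proteoglycan of the testican family, was 72.0 ± 19.0 in DPP4+ cells against 1.28 ± 1.81 in DPP4- cells (SD, n = 5 each), and of 36 proteoglycan and hyaluronan genes 16 were higher and 13 lower (22 and 8 with the totals set equal). P4ha3, a subunit of the enzyme that hydroxylates proline in collagen, had 941, 850.1, 659, 785 and 785 normalized reads in the DPP4+ libraries, against 16.2, 39.0, 15.1, 19.96 and 32.1 in the DPP4- libraries. Adamts16, a secreted metalloprotease, was 343 ± 68.4 in DPP4+ cells against 1.70 ± 1.19 in DPP4- cells and its relative Adamts4, an aggrecanase, was 1643 ± 481 in DPP4+ cells against 27531 ± 3167 in DPP4- cells (SD, n = 5 each), so that members of this one family stood on both sides. Mmp3, the protease stromelysin, was lower (2219 ± 307 in DPP4+ cells against 22323 ± 1659 in DPP4- cells). Over 65 proteases, inhibitors and cross-linkers, 36 were lower and 18 higher (25 and 29 with the totals set equal).

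In cholesterol metabolism, 20 of 40 genes were lower and 14 higher (15 and 22 with the totals set equal). Of 18 enzymes of the path from acetyl-CoA to cholesterol, 9 were higher and 8 lower, and genes of both directions were interspersed along the pathway. Hmgcs1, which makes HMG-CoA, had 2172, 2011, 1811, 1917 and 1853 normalized reads in the DPP4+ libraries, against 10222, 6967, 8955, 6822 and 6279 in the DPP4- libraries. Lss, which closes the sterol ring, had 384, 336, 299.6, 313 and 311 normalized reads in the DPP4+ libraries, against 56.7, 48.0, 73.1, 52.2 and 34.7 in the DPP4- libraries. Mvk, the mevalonate kinase, had 326, 324, 273, 289 and 266 normalized reads in the DPP4+ libraries, against 74.3, 81.1, 109.6, 62.9 and 52.7 in the DPP4- libraries. The 3 enzymes were apart without overlap (log2 differences -1.98 ± 0.12, 2.65 ± 0.15 and 1.98 ± 0.15 SE, adjusted p = 3.06e-09, 3.91e-10 and 2.31e-08, limma). Lower with Hmgcs1 were Idi1 (-2.06), Sqle (-1.01), Cyp51 (-1.12) and Msmo1 (-1.28). Hsd17b7, Ebp and Sc5d were lower by less (-0.46, -0.25 and -0.39) and turned positive with the totals set equal (0.15, 0.36 and 0.22). Higher with Lss and Mvk were Dhcr7 (2.12), Mvd (1.38), Nsdhl (1.19), Acat2 (0.91), Fdps (0.86), Fdft1 (0.73) and Tm7sf2 (0.67), while Pmvk was not called (0.29, adjusted p = 0.0575, limma) but passed with the replicate number as a block (adjusted p = 0.0199, limma), with the totals set equal (0.90) and without replicate 1 or 3 of the DPP4- libraries. The sterol sensor partner Insig1 was lower with Hmgcs1 (1264 ± 62.2 in DPP4+ cells against 6771 ± 770.0 in DPP4- cells, SD, n = 5 each).

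**Figure D5:**
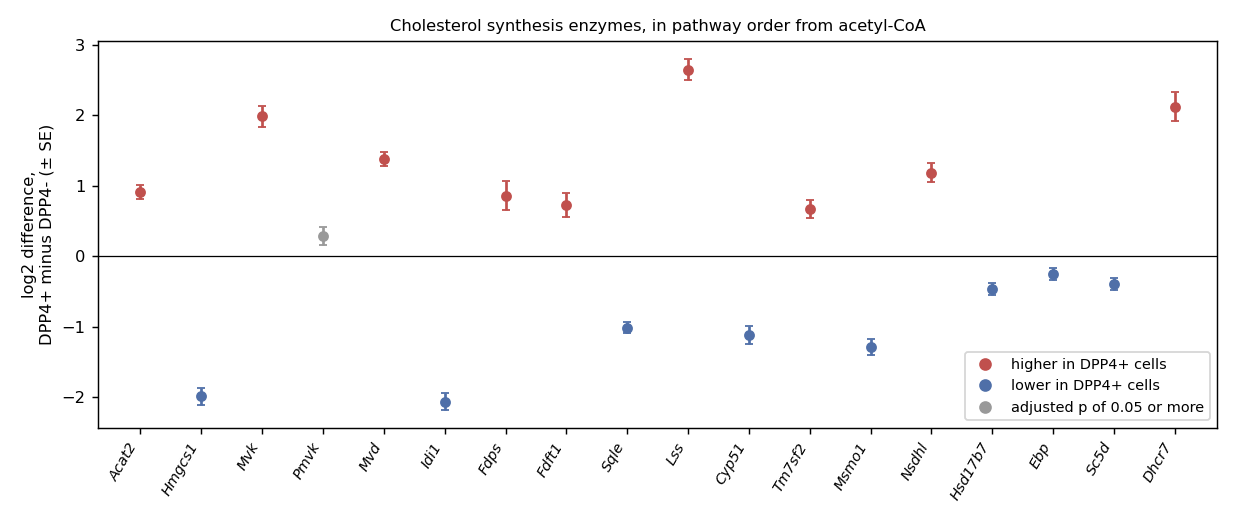
Fitted log2 difference, DPP4+ minus DPP4- cells, with its standard error for 18 enzymes of cholesterol synthesis in pathway order. Points above and below 0 are interspersed, from Hmgcs1 and Idi1 near -2 to Lss and Dhcr7 above 2.

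Genes of this pathway are known targets of the factor Srebf2, which binds sterol response elements, so the start region of Hmgcs1 is shown (RefSeq, GRCm38.p6, chr13:119690101-119690400, plus strand), with the motif TCACNCCAC in capitals, searched on both strands.
Hmgcs1: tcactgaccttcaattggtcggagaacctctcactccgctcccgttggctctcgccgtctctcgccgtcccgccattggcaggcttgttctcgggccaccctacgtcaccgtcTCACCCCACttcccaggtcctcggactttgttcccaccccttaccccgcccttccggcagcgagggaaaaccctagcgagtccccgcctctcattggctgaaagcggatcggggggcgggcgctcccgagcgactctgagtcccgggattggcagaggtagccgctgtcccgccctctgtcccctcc
The window holds 1 match. Of the 18 enzymes 15 had a window in the table, and Hmgcs1 was the only one with the motif in it. It was found in 1.24% of all 32851 windows. Srebf2 itself was lower (2221 ± 117 in DPP4+ cells against 3365 ± 437 in DPP4- cells, SD, n = 5 each), with a log2 difference of -0.59 that was 0.02, and not called, with the totals set equal.

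Genes of glucose metabolism stood on both sides. Of 40 genes, 21 were higher and 14 lower (28 and 10 with the totals set equal). The glucose carrier Slc2a1 had 434, 521, 651, 521 and 496 normalized reads in the DPP4+ libraries, against 2115, 2695, 2646, 2472 and 2216 in the DPP4- libraries. The hexokinase Hk2 had 7271, 7937, 9647, 8942 and 10051 normalized reads in the DPP4+ libraries, against 31919.9, 26336, 24691, 29556 and 28554 in the DPP4- libraries. Both were lower without overlap, as was the carrier Slc2a3 (32.3 ± 4.78 in DPP4+ cells against 173 ± 13.2 in DPP4- cells, SD, n = 5 each). Pfkl, a phosphofructokinase of the liver type, had 674, 590.1, 529.7, 592 and 534 normalized reads in the DPP4+ libraries, against 108, 116, 145, 119.7 and 122 in the DPP4- libraries and was higher, as were Eno1, an enolase with a near-identical copy that may share its reads (1776 ± 140.2 in DPP4+ cells against 556 ± 40.3 in DPP4- cells), and Gys1, a glycogen synthase (297 ± 35.7 in DPP4+ cells against 64.7 ± 3.72 in DPP4- cells, SD, n = 5 each).

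Genes of lipid storage and release were also found on both sides, 28 higher and 24 lower of 59 (38 and 11 with the totals set equal). The droplet protein Plin1 had 389, 329, 289, 347 and 357 normalized reads in the DPP4+ libraries, against 2.70, 58.5, 36.5, 33.8 and 47.6 in the DPP4- libraries. Plin4, another droplet protein, had 243, 227, 190.3, 215 and 196 normalized reads in the DPP4+ libraries, against 2059, 3776, 3099, 2697 and 3359 in the DPP4- libraries. The fatty acid transporter Cd36 and Lpl, which frees fatty acids from lipoproteins, were lower (193 against 2355 and 9683 against 37662 normalized reads). The adipokine Adipoq and the protease Cfd (adipsin) were higher (332 against 20.1 and 648 against 35.9). On the list of mature adipocyte markers, 8 of 11 tested were higher and 2 lower, while the summed level was 2014 to 2671 in DPP4+ libraries and 2252 to 4549 in DPP4- libraries, of which Plin4 made 2059 to 3776. Whether RNA of adipocytes contributed to these genes was not tested.

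Mitochondrial genes were more often higher than lower in DPP4+ cells, by small amounts. Of 47 genes of fatty acid oxidation and the citric acid cycle, 28 were higher and 8 lower, 3 and 0 by at least 2-fold (44 and 0 called with the totals set equal). Of 74 nuclear respiratory chain subunits, 36 were higher, none of them by 2-fold, and 5 lower (69 and 2 with the totals set equal). The median differences were 0.22 and 0.18 on the log2 scale, against 0.03 for all genes. Pck2, a mitochondrial carboxykinase, was the member of the first list with the largest rise (878 ± 63.8 in DPP4+ cells against 315 ± 29.6 in DPP4- cells, SD, n = 5 each). The only subunits lower by at least 2-fold were Cox8b and Ndufa4l2, forms of cytochrome oxidase subunits with restricted tissue expression.

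Enzymes of retinoid and steroid metabolism included several near 0 in one population. Aldh1a3, which makes retinoic acid, had 1856, 1971, 2220.3, 2054 and 2420.4 normalized reads in the DPP4+ libraries, against 60.8, 63.1, 29.0, 44.5 and 48.9 in the DPP4- libraries. Akr1c18, which inactivates progesterone in mice, had 541, 823, 942, 795 and 892 normalized reads in the DPP4+ libraries, against 9.45, 4.5, 3.78, 4.61 and 6.43 in the DPP4- libraries. Dhrs9, a short-chain dehydrogenase, was 303 ± 58.1 in DPP4+ cells against 7.88 ± 4.63 in DPP4- cells (SD, n = 5 each). Hsd11b2 and Hsd11b1, which inactivate and reactivate glucocorticoid hormone, were both lower (4.59 ± 2.12 in DPP4+ cells against 182 ± 34.2 in DPP4- cells and 381 ± 76.3 in DPP4+ cells against 2006 ± 471 in DPP4- cells). Akr1c18 and the receptor Pgr, whose ligand it inactivates, were thus both near 0 in DPP4- cells. Of 28 tested, 9 were higher, all by at least 2-fold, and 15 lower, 7 of them by at least 2-fold (16 and 7 with the totals set equal).

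Amino acid and redox genes differed in both directions. Ass1, which makes the precursor of arginine, was 55.9 ± 9.43 in DPP4+ cells against 2.73 ± 1.74 in DPP4- cells, and Mthfd1l, of mitochondrial one-carbon metabolism, was 169 ± 22.9 in DPP4+ cells against 30.9 ± 7.91 in DPP4- cells. The amino acid carrier Slc7a8 was lower (140.5 ± 9.19 in DPP4+ cells against 820.5 ± 61.5 in DPP4- cells), as was Odc1, the first enzyme of polyamine synthesis (964 ± 78.0 in DPP4+ cells against 3535 ± 619.6 in DPP4- cells, SD, n = 5 each). Among detoxifying enzymes, Cyp2e1, a cytochrome P450, had 0, 0.655, 2.17, 1.88 and 2.91 normalized reads in the DPP4+ libraries, against 166, 85.6, 116, 123 and 117 in the DPP4- libraries. Fmo2, a flavin monooxygenase, was lower (155 ± 19.9 in DPP4+ cells against 2174 ± 332 in DPP4- cells), and the glutathione transferase Gsta3 was higher (86.7 ± 7.08 in DPP4+ cells against 6.15 ± 2.94 in DPP4- cells, SD, n = 5 each). Of 66 amino acid genes 32 were higher and 26 lower (41 and 18 with the totals set equal). Of 65 redox genes 19 were higher and 33 lower (37 and 20).

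Whether these differences held in the cold was tested for 24 genes, the markers, Pdgfra, Pdgfrb and the 20 with the widest separation at 22 °C. Over all tested genes the difference between the populations changed with cold for 4295 (32.9%, adjusted p under 0.05, limma interaction over all 20 libraries). Among the 24 it changed for 8. For 23 of them the fitted difference had the same sign at 6 °C as at 22 °C, the exception being Pdgfra. As 20 of the 24 were chosen for the size of their difference at 22 °C, and the same 22 °C values enter this test, neither the shared sign nor a move towards 0 is independent of that choice. Itga7 averaged 73.7 ± 17.1 in DPP4+ cells against 726 ± 221 in DPP4- cells at 6 °C (SD, n = 5 each), so its log2 difference moved by 2.84 ± 0.29 SE towards 0 (adjusted p = 1.36e-07, limma). Adamts16 averaged 170.4 ± 44.8 in DPP4+ cells against 5.39 ± 5.13 in DPP4- cells at 6 °C, a change of -2.05 ± 0.60 SE (adjusted p = 0.0128, limma). At 22 °C it averaged 343 in DPP4+ cells against 1.70 in DPP4- cells, so part of this change rested on a few reads in DPP4- cells. Acsbg1 averaged 3.03 ± 1.91 in DPP4+ cells against 84.9 ± 34.1 in DPP4- cells at 6 °C, and 0.666 in DPP4+ cells against 133 in DPP4- cells at 22 °C. Its change of 1.99 ± 0.47 SE (adjusted p = 0.00205, limma) thus rested largely on a few reads in DPP4+ cells. For Sema3e, Igsf1, Egfl6, Pgr, Acta2, Oprd1, Kcna2, Lsamp, Cacna1e and Ntf3 the change was not called (adjusted p of 0.0512 or more, limma), which does not show that it was absent.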

How the data were processed

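The deposited table holds, per the labels and the submitters' processing notes, RNA-seq values of PDGFRb+ adipose cells from 20 libraries prepared with the NEBNext Ultra II RNA kit. The notes list, without roles, DESeq2 1.6.3, featureCounts 1.4.6, HISAT2 2.0.1 and Trim Galore 0.4.1, and the builds GRCm38 and mm10. The values deposited by the authors are a signal per gene, read counts divided by a factor per library. Dividing each library's values by its smallest step gave whole reads for 100% of values (tolerance 0.1 read), from 10.95 to 17.6 M reads per library at 22 °C. Of 27179 genes, 958 had no symbol, at most 0.0824% of reads. Counting error matched the spread between libraries (edgeR, common coefficient of variation of 0.0746 in DPP4+ and 0.0948 in DPP4- cells) at about 180 and 111 reads, and exceeded it below.

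The test was limma 3.58.1 (R 4.3.3) on log2(value + 1) over the 10 libraries at 22 °C, with trended and robust variances, two-sided, with Benjamini-Hochberg adjustment over 13043 genes with a mean of at least 10. The change with cold was an interaction contrast over all 20 libraries. On the recovered whole reads, edgeR 4.0.16 (quasi-likelihood test, TMM) called 5148 genes higher and 4891 lower, and DESeq2 1.42.0 called 4976 and 4938. Alternatives changed the scale, the test, the pseudocount, the filter, the block and each library in turn.

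Named genes were Dpp4, Pi16, Sparcl1, Col4a1, Pdgfra and Pdgfrb, the 10 with the largest rise and the 10 with the largest fall among called, non-overlapping genes with a mean of at least 50 in the higher group, up to 3 in each direction per list by the same conditions, and the members with the most reads. Genes of the HOX, Hedgehog, neurotrophin, CNTF receptor, collagen, cholesterol and cell marker accounts were added after their values were seen. Some genes of these accounts and of this rule are not reported here. All members and lists were chosen with earlier results of these data known. Sequences are from RefSeq (GRCm38.p6). Of the tested genes, 10120 had a start window.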

Additional observations from a re-analysis of the deposited data

Results flagged for a closer look

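In 27 of 417 groups of 5 libraries, over the 209 tested genes named in the report and this section, 1 library stood away from the other 4 by Dixon's test, which flags about 1 group in 20 by chance. Replicate 1 held 6 of these in the DPP4+ group. It was lowest for Col5a3 (3832 normalized reads), Col6a1 (18439), Col6a2 (15883) and Mmp3 (1678), and highest for Ddr1 (979) and Itga7 (14.9). Replicate 3 of the DPP4+ libraries was lowest for Cxcl14 (425) and Fbln7 (96.3) and highest for Lsamp (3.62), and replicate 5 was highest for Bmp3 (190), Krtdap (82.9), Sema4a (63.3) and Oprd1 (0.727, a single read). In the DPP4- group replicate 1 was highest for Col5a3 (93436), Boc (2468), Dpp4 (105) and Odc1 (4614), and lowest for Il1r1 (32448) and Vtn (1325). Replicate 2 was highest for Cemip (21) and lowest for Notch3 (1195) and Hoxb6 (15), replicate 3 was lowest for Col1a2 (356408) and Sema3e (0), replicate 4 was highest for Igfbp2 (7.68) and Spp1 (18.4), and replicate 5 was highest for Lamc3 (1283).

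For 8 genes the DPP4+ minus DPP4- difference was not the same at 6 °C and 22 °C by the interaction test in limma. The log2 difference changed with cold by 2.84 for Itga7, 1.99 for Acsbg1 and 0.96 for Col4a1. It changed by -5.95 for Cemip, -2.56 for Wnt16, -2.05 for Adamts16, -1.23 for Pdgfra and -0.96 for Pdgfrb. Cemip, a hyaluronidase, was at 221 ± 45.7 in DPP4+ cells against 10.8 ± 10.6 in DPP4- cells at 6 °C (SD, n = 5 each), and at 12532 ± 1286 in DPP4+ cells against 8.54 ± 7.04 in DPP4- cells at 22 °C.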

How the results depend on the processing

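Of 209 tested genes named here, 191 kept their direction and their side of the threshold under every alternative that gave them a value. For 25 of the 209 a minimum mean of 50 gave none. The scale mattered most. With the totals of the libraries set equal, 9227 genes came out higher in DPP4+ cells and 2079 lower, 4043 and 918 of them by at least 2-fold, against 5191, 4808, 1820 and 1725 as deposited, and the medians of all 29 lists moved. Under that scale the log2 difference reversed for Col4a5 (0.33), Col4a6 (0.23), Ebp (0.36), Hoxa3 (0.25), Hoxc4 (0.34), Hsd17b7 (0.15), Ntrk2 (0.41), Pdgfrb (0.13), Ptch1 (0.50), Sc5d (0.22) and Srebf2 (0.021). Quantile normalization (5125 higher and 4803 lower) reversed Col1a1 (0.085), Col3a1 (0.087), Col4a5 (0.15), Il6st (0.086) and Ntrk2 (0.26). Itgb1, near 0 as deposited, reversed with DESeq2 (-0.014), without DPP4- replicate 3 (-0.018) and without DPP4- replicate 4 (-0.0086), its range over the left-out replicates being -0.018 to 0.045. Ptch1 reversed without DPP4- replicate 3 (0.019), with a range of -0.26 to 0.019. The cause of these changes was not tested. A minimum mean of 1 raised the at least 2-fold lower genes to 3100, with 17301 genes tested, and a minimum mean of 50 lowered the at least 2-fold higher genes to 1125, with 10462 tested. Leaving out each replicate in turn gave 9632 to 10077 called genes (9999 with all), 4987 to 5243 higher, 4645 to 4834 lower, 1760 to 1849 at least 2-fold higher, 1682 to 1763 at least 2-fold lower, and 8 to 10 of 24 genes with a change in the cold. That last alternative was chosen after seeing the data for the change in the cold. With the replicate number as a block (replicate block), 5170 genes were higher and 4804 lower, and 8 of the 24 changed with cold. The labels give groups the same numbers without saying what a number stands for. Deviations of same-numbered libraries correlated by 0.027 to 0.148 across genes. Each DPP4- library correlated most with the DPP4+ library of its own number. DPP4+ replicate 1 correlated more with DPP4- replicate 3 (0.055 against 0.034), and DPP4+ replicate 4 more with DPP4- replicate 2 (0.045 against 0.027). Whether the numbers mark pairs is thus not settled, and the main fit did not take them as pairs. Genes with fewer than about 10 normalized reads on average were not tested, and differences of low genes depend on the pseudocount.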

Other observations

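The genes known to mark each population had exceptions. Among 18 genes of DPP4+ interstitial progenitors, Tppp3 was the 1 that was lower in DPP4+ cells, at 821 ± 64.6 normalized reads in DPP4+ cells against 3415 ± 249.9 in DPP4- cells (SD, n = 5 each), while Krtdap, a secreted protein best known from keratinocytes, was 61.2 ± 12.4 in DPP4+ cells against 0.527 ± 0.722 in DPP4- cells. Among 17 genes of committed preadipocytes, 3 were higher in DPP4+ cells. Dlk1, the preadipocyte factor Pref-1, was 109.6 ± 31.4 in DPP4+ cells against 21.4 ± 3.35 in DPP4- cells (log2 difference 2.26 ± 0.19 SE, adjusted p = 1.82e-08, limma), and the others were the syndecan Sdc1 and the carbonic anhydrase Car3 (log2 differences 0.73 and 1.61). Steap4, a metalloreductase of the same list, was 1554 ± 177 in DPP4+ cells against 35776 ± 3297 in DPP4- cells. Of 12 genes of the F3+ progenitor described in mouse fat, 10 were lower and 0 higher as deposited, but 8 were lower and 3 higher with the totals set equal.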
